A study of Mus musculus with 10 samples.

Results

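The cytochrome P450 genes of mouse lung were followed here as every array probe, controls left out, whose gene name is Cyp with a family number, a subfamily letter and a member number. This rule found 102 probes of 70 genes among 41174 probes with 27962 names. Probe signals were measured in whole lung of 8-week-old male mice, all on the C57BL/6J background and all given 30 min of aerosolized saline before the lungs were taken. Wild-type mice were compared with p53 null mice, 5 arrays each, which the series' design calls biological replicates. The labels do not name the p53 allele, and p53 is the transcription factor encoded by Trp53. All values are log2 intensities minus the array's 75th percentile, so 0 is that percentile and 1 unit stands for a 2-fold difference. A difference is p53-null minus wild type, with its SE and Benjamini-Hochberg adjusted p from limma over all 31598 probes tested. A probe was called at an adjusted p under 0.05.

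Cytochrome P450 enzymes are heme-bearing monooxygenases that use electrons from a reductase in the endoplasmic reticulum or from ferredoxin in mitochondria. Some families oxidise drugs, smoke constituents and other foreign compounds, while others make or clear steroids, bile acids, vitamin D, retinoic acid and fatty acid mediators such as leukotrienes. In lung they are best known from club cells, the secretory cells of the small airways, where Cyp2f2 activates naphthalene.

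The probes on which the comparison turns are 60 bases long. The probe sequences of 4 are printed as the files give them, on mm7 coordinates, to show what was measured: members of the Cyp4f subfamily are similar in sequence, and each of these probes has a reading frame free of stop codons. No bases are capitalised in them, and the exons they lie in were not identified, as no mm7 annotation was used here.
Cyp4f18 A_51_P238094 (chr8:70491704-70491763, minus strand): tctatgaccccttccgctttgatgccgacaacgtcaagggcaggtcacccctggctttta
Cyp4f13 A_51_P210603 (chr17:31127900-31128047, minus strand): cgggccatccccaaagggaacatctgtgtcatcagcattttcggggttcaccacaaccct
Cyp4f16 A_52_P533841 (chr17:30743505-30743564, plus strand): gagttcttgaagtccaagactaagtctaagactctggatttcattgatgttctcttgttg
Cyp11a1 A_51_P309727 (chr9_random:3881114-3881173, minus strand): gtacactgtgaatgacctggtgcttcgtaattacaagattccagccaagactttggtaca
The Cyp4f13 coordinates span more bases than the probe holds, and the Cyp11a1 probe lies on an unplaced piece of chromosome 9. No pair of Cyp4f probes overlapped by 30 or more bases with 80% or more identical. Among all P450 probes, 3 pairs from different genes did: Cyp2a4 with Cyp2a5 (35 of 38 bases), Cyp2c40 with Cyp2c54 (38 of 46) and Cyp2j11 with Cyp2j13 (28 of 30). Those genes' signals may include RNA of the near-identical partner. Probes were compared only with each other, so a match of a Cyp4f probe to RNA of another Cyp4f gene was not tested.

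The arrays were examined first. Between 71.4% and 84.0% of spots per array were well above background, and pairs of arrays correlated at 0.967 to 0.991. Wild-type array 3 alone was scanned on day 2, so a block for scan day sets this array aside. It had 719 spots flagged as outliers, against 51 to 137 on the other arrays. A Trp53 probe fell by 1.28 on the log2 scale in p53-null lung (SE 0.16, limma adjusted p = 0.00589). Wild-type array 5 was the lowest of its group there, at -2.22. A second Trp53 probe differed by 0.31 ± 0.28 (limma adjusted p = 0.504). Whether either lies in the deleted part is not stated. Skeletal muscle markers, as a sum of 7 scaled linear signals, were 90.2 on wild-type array 2, 40.8 on p53-null array 4 and 43.3 on p53-null array 5, and at most 5.65 on the other arrays. Squamous epithelium markers summed to 48.1 on wild-type array 2 and 20.8 on p53-null array 5, and to at most 2.23 elsewhere. All 7 neutrophil markers were higher in p53-null lung, with sums from 4.0 to 8.08 in wild type and from 18.9 to 42.9 in p53-null. Of 5 B cell markers, 4 were higher, and 3 of 6 fibroblast markers were lower. In whole lung, fewer cells of a type and less RNA per cell cannot be told apart. None of the 5 alveolar epithelial markers passed the test, and 1 of 8 club cell markers, Chad, was lower.

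Of the 102 P450 probes, 69 (67.6%) were well above background on 5 or more of the 10 arrays, against 76.7% of all probes. They represent 54 of the 70 genes. Detection was complete for 57 probes, which stood above background on all 10 arrays, while 18 probes did so on none. The 16 genes without a probe past this limit were Cyp11b2, Cyp19a1, Cyp1a2, Cyp2a12, Cyp2c38, Cyp2c39, Cyp2c54, Cyp2d13, Cyp2j11, Cyp2j5, Cyp3a16, Cyp3a25, Cyp3a44, Cyp4f14, Cyp7a1 and Cyp8b1. They include enzymes best known from liver, such as Cyp7a1 and Cyp8b1 of bile acid synthesis and the drug-metabolising Cyp1a2, and from gonad or adrenal gland, such as the aromatase Cyp19a1 and the aldosterone synthase Cyp11b2. For 8 of these genes no probe was well above background on any array.

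The roles differed in how much of each was measured. All probes for the vitamin D enzymes (4 of 4) and the retinoic acid enzymes (2 of 2) were past the limit, as were 12 of 15 for family 4, the fatty acid and eicosanoid hydroxylases. Family 2, apart from its epoxygenase-related and vitamin D members, had 31 of 42 probes past it and the epoxygenase-related genes 6 of 10. Cholesterol and bile acid enzymes had 5 of 8, steroid hormone enzymes 3 of 7, and families 1 and 3 had 5 of 13. Just inside the limit, on 5 arrays, lay Cyp2g1 A_51_P137452 with values from -7.14 to -5.60 and Cyp2c40 A_51_P502599 with values from -8.67 to -6.39. Just outside it, on 4 arrays, lay Cyp3a16 A_51_P482051 with values from -8.47 to -5.80 and a Cyp11a1 probe described with that gene. Hepatocyte markers, 6 of them on the array, summed to at most 0.144 in any library. Alb was well above background on all 10 arrays, Fgb on 6, Apoa2 on 5, Apoa1 on 4, Fga on 2 and Ttr on none.

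**Figure D1:**
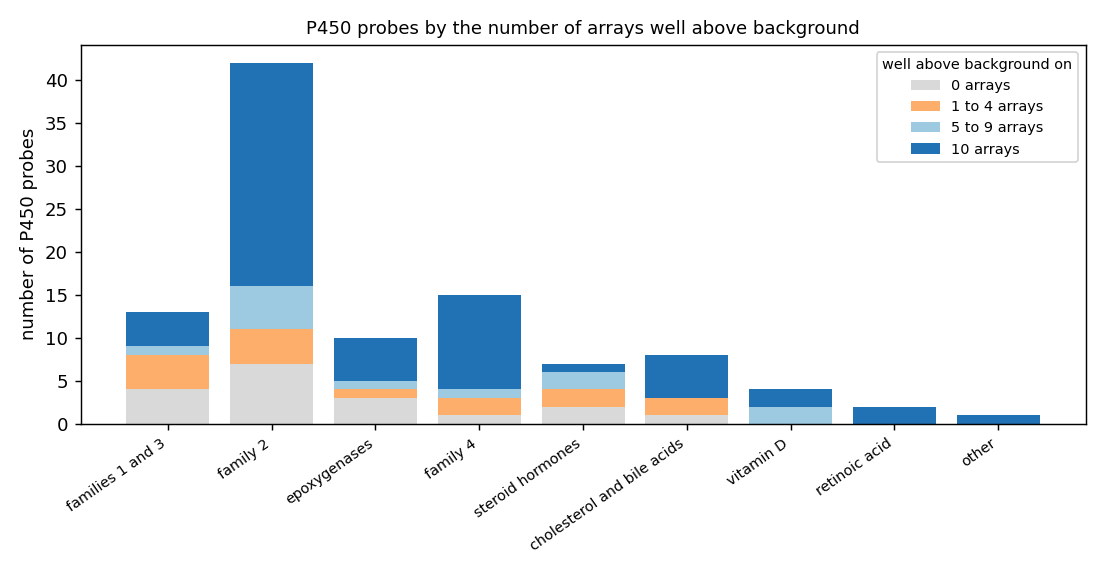
Number of P450 probes (vertical axis) in each role group (horizontal axis), coloured by how many of the 10 arrays had the probe well above background. Of 102 probes, 57 were above background on all 10 arrays and 18 on none, and families 1 and 3 had 5 of 13 probes above background on 5 or more arrays.

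Of 69 P450 probes tested, 6 were higher in p53-null lung and none lower by limma's adjusted p. This is 8.70% of the members, beside 7.1% of all probes tested (4% higher and 3.1% lower), so the share called is near the background. At an unadjusted p under 0.05, 12 P450 probes were higher and 5 lower, or 17.4% and 7.25%, beside 14.2% and 13% of all probes. The median difference over the members was 0.072, beside 0.037 over all probes. Above 0 lay 39 of 69 (56.5%), beside 54.8% of all probes. In 5 probes every p53-null array read above every wild-type array, and in 1 every p53-null array read below, where 4.87% and 4.29% of all probes did so (9.16% together). The 6 called probes belong to Cyp4f18, Cyp4f13, Cyp4f16 (2 probes), Cyp27a1 and Cyp11a1. The Cyp11a1 probe was well above background on 2 wild-type arrays and passed the filter through the p53-null arrays, where it was high. Its call and its lack of overlap therefore add little to these counts.

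**Figure D2:**
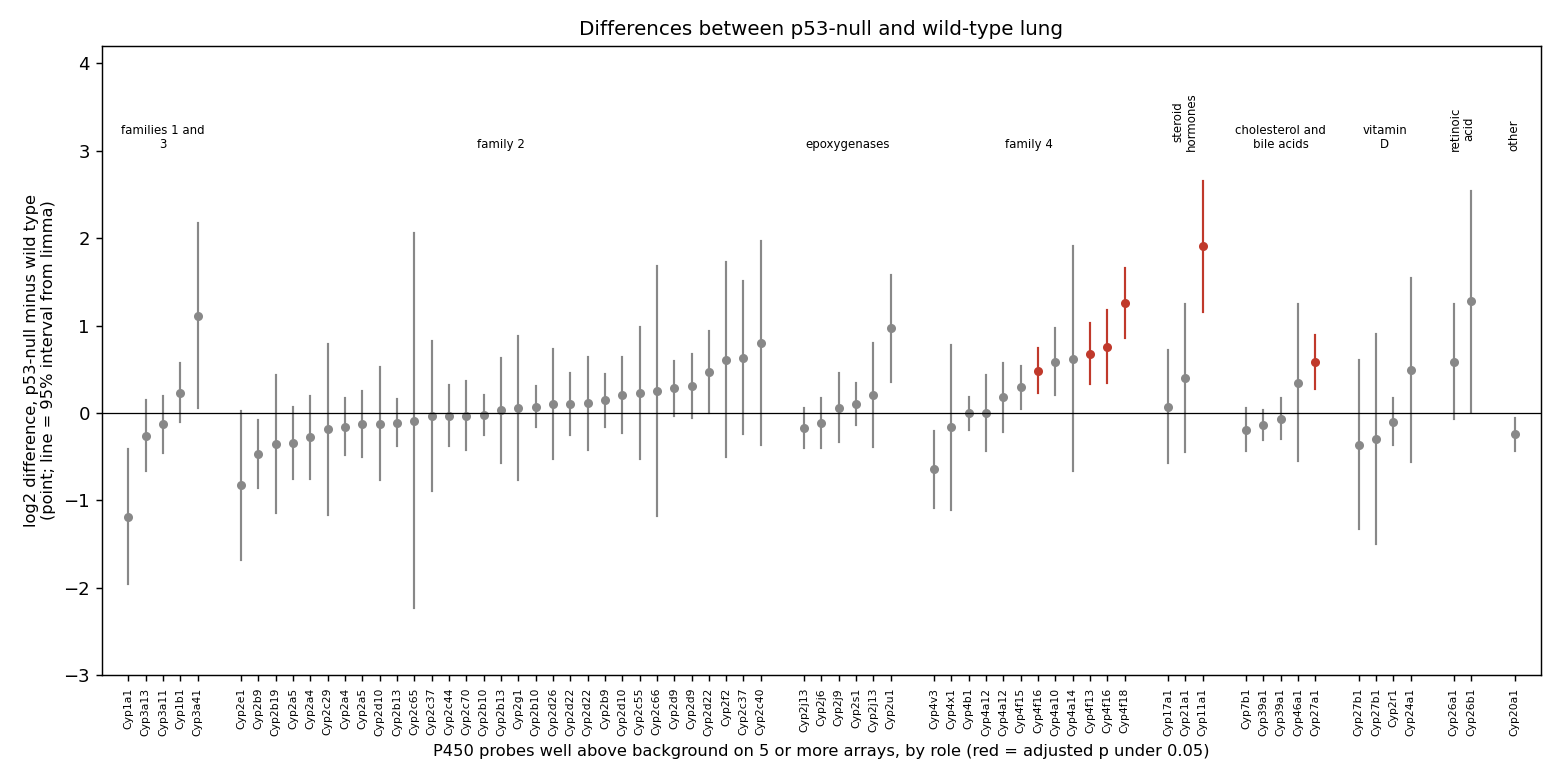
Log2 difference, p53-null minus wild type (vertical axis, points), with a 95% interval (lines) for the 69 P450 probes tested, grouped by role along the horizontal axis. The intervals use limma's SE but not the degrees of freedom that eBayes adds, so they are wider than those behind limma's p-values. The 6 probes called at an adjusted p under 0.05, in red, all lie above 0, and 4 of them belong to family 4.

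Family 4 held 4 of the 6 called probes. Its enzymes hydroxylate the end of fatty acid chains, and the Cyp4f members act on leukotrienes and related lipids. Of its 12 tested probes 4 were higher and none lower, beside 4% and 3.1% of all probes. Above 0 lay 9 (75%), beside 54.8% of all probes, and the median difference was 0.39. All 3 called genes are of the Cyp4f subfamily.

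Cyp4f18 hydroxylates leukotriene B4, a chemoattractant, and is known from neutrophils. Its probe, on chromosome 8 from 70491704 to 70491763 (mm7), read -0.27, -0.30, -0.55, -0.17 and 0.24 on wild-type arrays 1 to 5. On p53-null arrays 1 to 5 it read 1.56, 0.93, 0.91, 0.86 and 0.97. The groups did not overlap, and p53-null array 1 stood above the other p53-null arrays. The difference was 1.26 ± 0.17 (limma adjusted p = 0.00996), a 2.39-fold higher signal. It stayed called with each array left out in turn, with adjusted p from 7.78e-04 to 0.0331. The neutrophil markers given above were also higher on the p53-null arrays, and their part in this difference was not tested. On slide 5, which held 1 array of each group, the p53-null array read 1.10 higher.

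Cyp4f13 lies with Cyp4f15 and Cyp4f16 in a cluster on chromosome 17, where its probe spans 31127900 to 31128047. It read -0.10, -0.49, -0.40, -0.26 and 0.39 on wild-type arrays 1 to 5 and 0.46, 0.58, 0.55, 0.49 and 0.46 on the p53-null arrays. Wild-type array 5 came close to the p53-null arrays without reaching them, and the p53-null arrays lay within a narrow band (SD 0.05). The difference was 0.68 ± 0.15 (limma adjusted p = 0.0332).

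Cyp4f16 had probes from 30749685 to 30749744 and from 30743505 to 30743564 on the same chromosome. The first read -0.82, -0.99, -1.07, -1.16 and -0.17 on wild-type arrays 1 to 5 and 0.16, -0.06, -0.21, -0.03 and -0.27 on the p53-null arrays. Wild-type array 5 fell inside the p53-null range, and the other 4 wild-type arrays fell below it. The difference was 0.76 ± 0.18 (limma adjusted p = 0.0381), and the second probe gave 0.49 ± 0.11 (adjusted p = 0.0361). Both probes of the gene were thus higher in p53-null lung, and for the second, too, wild-type array 5 was the highest of its group at -2.86.

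Cyp4f15, the third measured gene of the cluster, did not pass the test at 0.29 ± 0.11 (limma adjusted p = 0.109). Its wild-type arrays lay between -0.85 and -0.40 and its p53-null arrays between -0.36 and -0.11, with no overlap. Cyp4f14 was well above background on 3 arrays and was not tested. In the stretch from 30 to 32 Mb of chromosome 17 (mm7), 5 of 77 other tested probes were higher and none lower, or 6.49%, which is near the background of all probes.

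The calls of Cyp4f13, Cyp4f16 and Cyp27a1 rest on the whole set of arrays. With any single array other than wild-type array 5 left out, Cyp4f18 and Cyp11a1 stayed called among the P450 probes and these genes did not, with adjusted p of at most 0.0845 for Cyp4f13, 0.0987 and 0.0912 for the Cyp4f16 probes and 0.0880 for Cyp27a1. Without wild-type array 5 the differences grew to 0.82 ± 0.088 for Cyp4f13 (limma adjusted p = 6.71e-04), 0.93 ± 0.11 for the first Cyp4f16 probe and 0.67 ± 0.11 for Cyp27a1. Without the 3 arrays with muscle or squamous signal no P450 probe was called, where 0.0329% of all probes were (0.0164% in each direction). There Cyp4f18 differed by 1.32 ± 0.24 (adjusted p = 0.134), Cyp11a1 by 1.78 ± 0.36 (0.145), Cyp27a1 by 0.68 ± 0.18 (0.195), Cyp4f13 by 0.62 ± 0.20 (0.220) and the first Cyp4f16 probe by 0.77 ± 0.25 (0.227). All of these kept their direction. The Cyp11a1 probe, however, was well above background on only 2 wild-type arrays and passed the filter through the p53-null arrays.

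The slides fell into a lower and a higher range of numbers, and 3 arrays lay in the higher: p53-null array 2 with wild-type arrays 3 and 4. With this range as a block, Cyp4f18 differed by 1.21 ± 0.18 (limma adjusted p = 0.0202) and Cyp11a1 by 1.88 ± 0.35 (adjusted p = 0.0330), while Cyp4f13, Cyp27a1 and both Cyp4f16 probes lay between adjusted p = 0.0600 and 0.0638. Within the lower range, with 3 wild-type and 4 p53-null arrays, Cyp4f18 differed by 1.19 ± 0.22 (adjusted p = 0.141), Cyp4f13 by 0.56 ± 0.20, the first Cyp4f16 probe by 0.57 ± 0.22 and Cyp27a1 by 0.36 ± 0.12, and none of them passed the threshold. The Cyp11a1 probe was not tested there, and 0.0508% of all probes tested were called. On slide 5 the p53-null array read above the wild-type array by 1.86 for Cyp11a1, 0.98 for Cyp27a1, 0.84 for Cyp4f13 and 1.10 for the first Cyp4f16 probe.

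**Figure D3:**
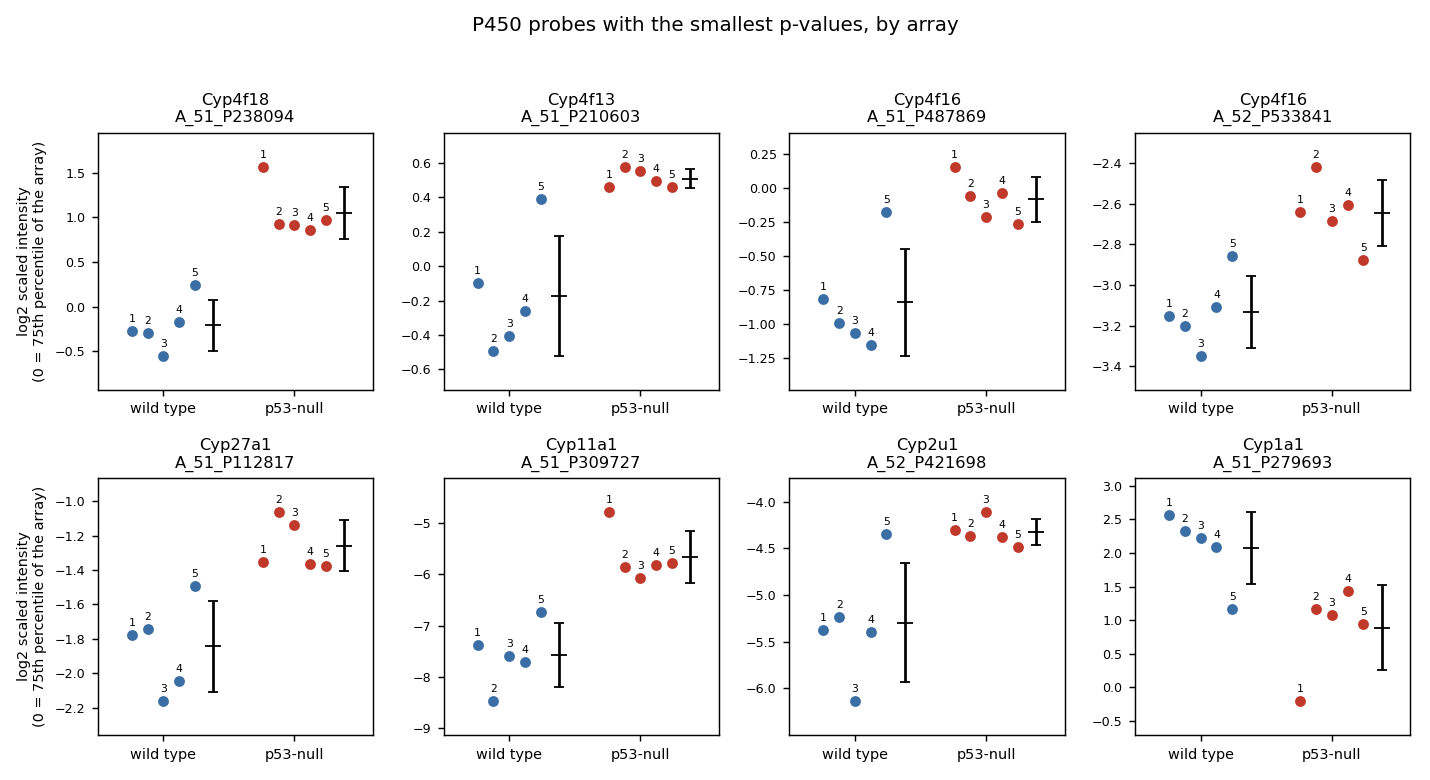
Scaled log2 intensity (vertical axes) of the 6 called P450 probes and of Cyp2u1 and Cyp1a1 on each array, numbered by replicate, with the mean and SD of each group of 5 as bars. In every panel wild-type array 5 is the wild-type array nearest to the p53-null arrays, as in Cyp4f13, where it read 0.39 against at most -0.10 for the other wild-type arrays.

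Promoters of the 4 called genes with a single start site in RefSeq are printed beside that of Cyp1a1, the gene with the largest fall in value, because these members moved or came near to the threshold. Each is the 250 bases before the start on GRCm38.p6, 5′ to 3′ in the direction of the gene. Capitals mark matches, on either strand, to 4 motifs: the CCAAT box (CCAAT), a GC box (CCGCCC), the TATA box (TATAAA) and the core of the xenobiotic response element (GCGTG), to which the aryl hydrocarbon receptor binds. These motifs were chosen after the sequences had been seen.
Cyp4f13 promoter (chr17:32947362-32947611, minus strand): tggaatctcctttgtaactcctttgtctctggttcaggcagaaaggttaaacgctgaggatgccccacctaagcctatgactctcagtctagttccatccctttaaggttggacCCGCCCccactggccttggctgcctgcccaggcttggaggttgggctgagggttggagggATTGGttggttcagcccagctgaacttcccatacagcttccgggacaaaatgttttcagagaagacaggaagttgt
Cyp4f16 promoter (chr17:32536307-32536556, plus strand): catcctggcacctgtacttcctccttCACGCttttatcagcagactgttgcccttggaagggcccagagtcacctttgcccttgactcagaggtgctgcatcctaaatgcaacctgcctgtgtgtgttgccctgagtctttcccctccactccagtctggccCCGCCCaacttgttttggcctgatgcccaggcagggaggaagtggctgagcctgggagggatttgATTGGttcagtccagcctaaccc
Cyp4f18 promoter (chr8:72009627-72009876, minus strand): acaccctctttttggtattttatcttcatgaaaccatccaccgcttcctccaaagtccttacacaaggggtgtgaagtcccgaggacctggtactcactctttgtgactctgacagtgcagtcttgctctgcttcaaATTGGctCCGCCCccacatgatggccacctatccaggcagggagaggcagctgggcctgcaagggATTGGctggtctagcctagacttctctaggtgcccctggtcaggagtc
Cyp27a1 promoter (chr1:74713285-74713534, plus strand): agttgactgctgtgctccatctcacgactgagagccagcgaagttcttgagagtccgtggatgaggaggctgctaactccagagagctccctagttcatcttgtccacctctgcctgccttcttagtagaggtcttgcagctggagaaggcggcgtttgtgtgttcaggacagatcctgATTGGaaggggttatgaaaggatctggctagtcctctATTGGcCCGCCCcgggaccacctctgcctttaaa
Cyp1a1 promoter (chr9:57697363-57697612, plus strand): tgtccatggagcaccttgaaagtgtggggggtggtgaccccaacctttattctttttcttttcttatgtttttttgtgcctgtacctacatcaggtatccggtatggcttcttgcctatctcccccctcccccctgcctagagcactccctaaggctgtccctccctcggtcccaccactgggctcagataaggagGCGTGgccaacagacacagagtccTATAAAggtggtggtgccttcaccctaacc
Cyp4f13, Cyp4f16, Cyp4f18 and Cyp27a1 each hold a CCAAT box on the reverse strand (ATTGG as printed) and a GC box. In Cyp4f13 the CCAAT box lies at -76 to -72 and the GC box at -136 to -131, counted from the start. In Cyp4f18 CCAAT boxes lie at -113 to -109 and at -48 to -44, on either side of a GC box at -106 to -101. In Cyp27a1 the GC box lies at -28 to -23, next to a CCAAT box at -34 to -30. Cyp1a1 holds none of either, but has a TATA box at -30 to -25 and the response element core at -54 to -50. Cyp4f16 also has this core, on the reverse strand, at -224 to -220. Among 32851 promoters of this length, 33.8% hold a CCAAT box, 32.7% the GC box, 28.2% the response element core and 12.4% the TATA box. Of the 52 P450 genes with a promoter in the table, 20, 15, 10 and 22 do. The p53 half-site was found in 7.1% of all promoters, in those of 6 P450 genes counted in the same way, and in none of the 5 printed. A match describes these letters only.

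Other members of family 4 did not pass the test. Cyp4v3, a fatty acid hydroxylase, had 4 wild-type arrays between 1.34 and 1.76, while wild-type array 5 at 0.67 lay among the p53-null arrays, which read 0.63 to 0.86. The difference was -0.64 ± 0.19 (limma adjusted p = 0.0673), and -0.83 ± 0.097 without wild-type array 5 (adjusted p = 8.65e-04). Cyp4a10, a hydroxylase known as a target of the lipid sensor Ppara, differed by 0.59 ± 0.17 (adjusted p = 0.0645), in a fit without wild-type array 3, whose spot carried an outlier flag. Cyp4b1, abundant in lung epithelium, lay within 5.62 to 5.94 on every array, with a difference of 0.00 and a 95% interval from -0.19 to 0.19. Cyp4a12 gave 0.00 ± 0.19 (also without wild-type array 3) and 0.18 ± 0.17 on its 2 probes, Cyp4x1 -0.16 ± 0.41 and Cyp4a14 0.62 ± 0.56.

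Among the steroid hormone enzymes, 1 of 3 tested probes was higher, beside 4% of all probes. Cyp11a1 encodes the mitochondrial enzyme that cleaves the side chain of cholesterol, the entry step of steroid synthesis. Its probe A_51_P309727 read -7.38, -8.47, -7.59, -7.71 and -6.74 on wild-type arrays 1 to 5, and was well above background on 2 of them. On p53-null arrays 1 to 5 it read -4.79, -5.85, -6.08, -5.83 and -5.79, well above background on all. All values lie far below the array's 75th percentile, the groups did not overlap, and p53-null array 1 again stood highest. The difference was 1.91 ± 0.33 (limma adjusted p = 0.0167), and it stayed called with each array left out in turn (adjusted p from 0.00156 to 0.0426). It was 0.79 (adjusted p = 0.0464) after background correction by normexp with an offset of 50. The 3 wild-type values that were not well above background limit how well the size of this difference is known. The p53-null arrays, where the probe was high, were enough to pass it through the filter, so the count for this role group says little.

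The second Cyp11a1 probe was well above background on no wild-type array and on 4 p53-null arrays, so it was not tested. In p53-null lung its signal was 2.19-fold higher by a rule that raises low wild-type values. The rule sets the p53-null mean against a raised wild-type mean. In it, a value under the array's dimmest signal well above background was raised to that signal. This is no strict lower limit, because every p53-null value lay above its array's dimmest such signal, though not all were well above background. The measured group means were -6.17 and -7.95. The other 4 probes seen above background in 1 group only, of Cyp1a2, Cyp2j11, Cyp2j13 and Cyp3a25, gave no fold above 1 by this rule. Of 4 adrenal cortex markers, Akr1b7, a reductase of adrenal cortex and other tissues, was higher by 1.04 ± 0.17 (adjusted p = 0.0153). Star differed by -0.19 ± 0.12, Hsd3b1 by 0.24 ± 0.26 and Mc2r by -0.15 ± 0.41. The markers' sum was 0.323 to 0.461 in wild type and 0.450 to 0.748 in p53-null lung, and their part in the Cyp11a1 difference was not tested. Cyp17a1, which makes androgen precursors, differed by 0.07 ± 0.28 and the steroid hydroxylase gene Cyp21a1 by 0.40 ± 0.37.

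Of the 5 tested cholesterol and bile acid probes, Cyp27a1 was the 1 called, beside 7.1% of all probes. It encodes a mitochondrial sterol hydroxylase of bile acid synthesis that macrophages also express. It read -1.78, -1.74, -2.16, -2.04 and -1.49 on wild-type arrays 1 to 5 and -1.35, -1.06, -1.14, -1.36 and -1.37 on the p53-null arrays, with no overlap. The difference was 0.58 ± 0.13 (limma adjusted p = 0.0347). Macrophage markers summed to 53.9 to 92.7 in wild type and 61.8 to 77.4 in p53-null lung, so the ranges of the sum overlapped. Most of this linear sum is Chil3, which read 5.42 to 6.29 in wild type and 5.67 to 6.07 in p53-null lung. The overlap therefore says little about the other markers. Of 4 tested macrophage markers Csf1r was higher and Marco lower. Cyp39a1 and Cyp7b1, hydroxylases of oxysterols, differed by -0.13 ± 0.07 and -0.19 ± 0.11, and Cyp46a1 by 0.35 ± 0.39.

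Families 1 and 3 hold enzymes of drug and smoke metabolism, and none of their 5 tested probes was called, beside 7.1% of all probes. Cyp1a1 is the classic target of the aryl hydrocarbon receptor. It read 2.56, 2.32, 2.22, 2.09 and 1.16 on wild-type arrays 1 to 5 and -0.20, 1.16, 1.08, 1.43 and 0.94 on the p53-null arrays. The groups overlapped through wild-type array 5, and p53-null array 1 was the lowest of all. The difference was -1.18 ± 0.34 (limma adjusted p = 0.0592), and -1.41 ± 0.30 without wild-type array 5 (adjusted p = 0.00821). It also passed the threshold when the GC trend of the probes was removed (adjusted p = 0.0419). Cyp1b1, another target of this receptor, differed by 0.23 ± 0.15 (95% interval -0.10 to 0.57), Cyp3a41 by 1.11 ± 0.46 (adjusted p = 0.152), and Cyp3a11 and Cyp3a13 by -0.13 ± 0.14 and -0.26 ± 0.18.

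Family 2 was the largest group, with 31 tested probes and a median difference of 0.034. None of them was called, beside 7.1% of all probes tested. Cyp2f2 read 6.54 to 7.39 on wild-type arrays 1, 2, 4 and 5 and 6.83 to 7.05 on the p53-null arrays. Wild-type array 3 read 4.25, a lower bound because its spot was saturated. The difference of 0.61 ± 0.48 (adjusted p = 0.448) thus had a wide 95% interval, from -0.50 to 1.73, and without that array it was 0.097 ± 0.17 (adjusted p = 0.810). Summed club cell markers ran from 400.1 to 555.1 in wild type and from 452.7 to 510.2 in p53-null lung. Cyp2a5, an enzyme of nicotine and coumarin oxidation, differed by -0.12 ± 0.16 and by -0.34 ± 0.18 on its other probe. Cyp2b10, a target of the xenobiotic receptor Nr1i3, differed by 0.07 ± 0.10.

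The smallest p-values in this group belonged to probes of Cyp2b9, Cyp2d22 and Cyp2e1. Cyp2b9 differed by -0.47 ± 0.17 (adjusted p = 0.110), but its second probe gave 0.15 ± 0.13. Cyp2d22 gave 0.47 ± 0.20 (adjusted p = 0.166), 0.11 ± 0.23 and, on its brightest probe, 0.10 ± 0.15, the last in a fit without wild-type array 3. Cyp2e1, the ethanol-oxidising P450, read 0.36, 2.20, 1.05, 1.78 and 1.49 on wild-type arrays 1 to 5 and 0.98, -0.30, 1.17, 0.35 and 0.56 on the p53-null arrays. The difference was -0.82 ± 0.37 (adjusted p = 0.183). Summed adipocyte markers were lowest on wild-type array 1 (32.5) and p53-null array 2 (29.1), where Cyp2e1 was also lowest in each group, and highest on wild-type array 2 (89.7), where it was highest. Their part in the Cyp2e1 values was not tested.

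Cyp2c65 and Cyp2c66 followed the arrays with squamous signal. Cyp2c65 read -2.55 on wild-type array 2 and -3.55 on p53-null array 5, and -7.86 to -5.04 on the other 8 arrays. Cyp2c66 read -3.46 and -4.10 on those arrays and -6.97 to -4.87 on the others. Both genes were highest in each group on the array with the highest squamous sum, and the part of that tissue in their values was not tested. Their differences between the genotypes were -0.09 ± 0.93 and 0.25 ± 0.62.

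**Figure D4:**
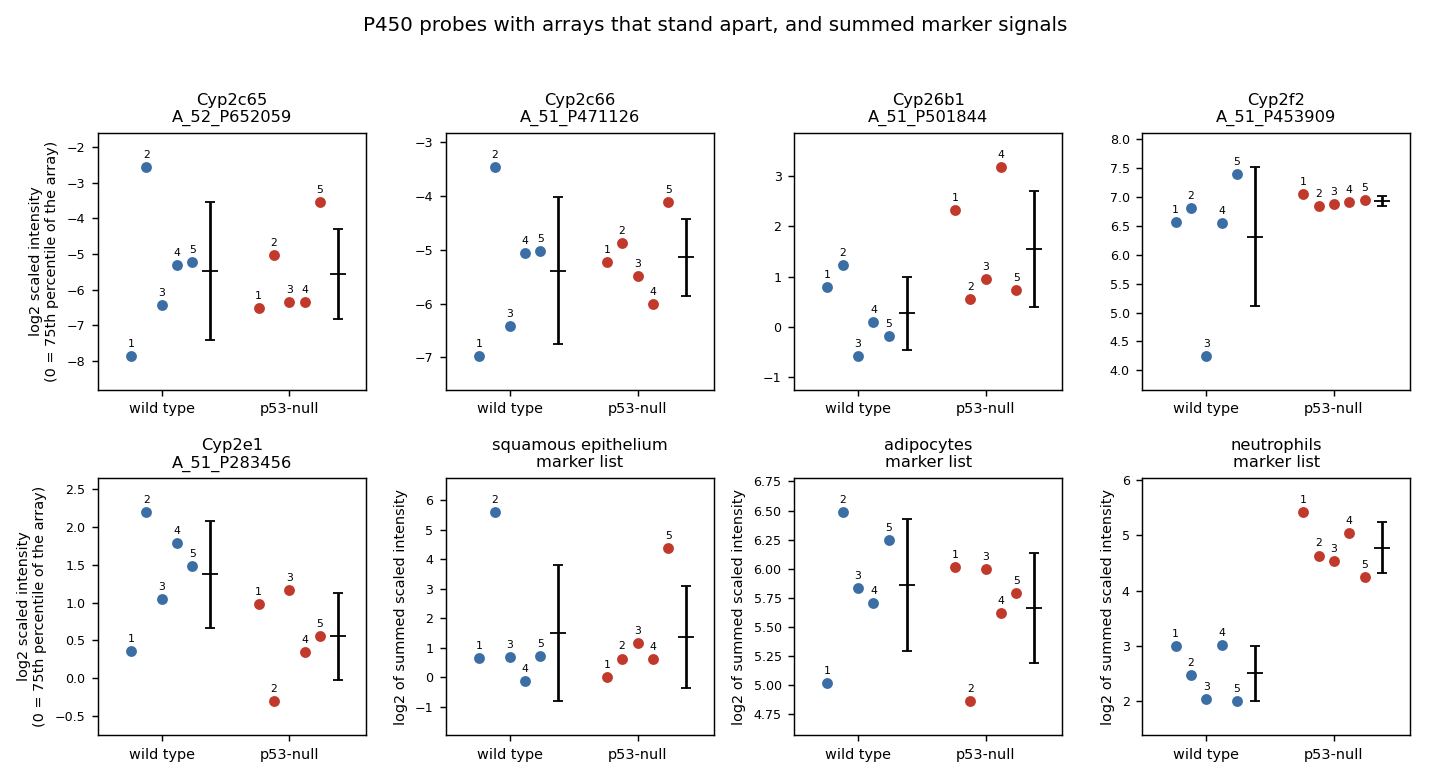
Scaled log2 intensity (vertical axes) of Cyp2c65, Cyp2c66, Cyp26b1, Cyp2f2 and Cyp2e1, and log2 of the summed scaled signals of 3 marker lists, on each array, with group means and SD. Wild-type array 2 and p53-null array 5 stand high in Cyp2c65, in Cyp2c66 and in the squamous list, while the neutrophil list separates the genotypes with sums of at most 8.08 against at least 18.9.

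The epoxygenase-related genes oxidise polyunsaturated fatty acids, and none of their 6 tested probes was called, beside 7.1% of all probes. Cyp2u1 read -5.37, -5.23, -6.13, -5.39 and -4.35 on wild-type arrays 1 to 5 and between -4.49 and -4.11 on the p53-null arrays, so that wild-type array 5 again lay inside the p53-null range. The difference was 0.97 ± 0.27 (limma adjusted p = 0.0549), and 1.21 ± 0.18 without wild-type array 5 (adjusted p = 0.00189). Cyp2s1, an epithelial P450, differed by 0.10 ± 0.10 (95% interval -0.13 to 0.34). Cyp2j13 gave -0.17 ± 0.10 and 0.21 ± 0.26 on its tested probes, Cyp2j6 -0.11 ± 0.12 and Cyp2j9 0.06 ± 0.17.

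Neither retinoic acid enzyme was called, beside 7.1% of all probes. Cyp26b1, which degrades retinoic acid, read 0.79, 1.22, -0.58, 0.09 and -0.18 on wild-type arrays 1 to 5 and 2.32, 0.54, 0.94, 3.19 and 0.73 on the p53-null arrays. The high p53-null arrays, 1 and 4, shared slide 2. The difference was 1.28 ± 0.55 (adjusted p = 0.167), and Cyp26a1 differed by 0.59 ± 0.28 (adjusted p = 0.213). Of the vitamin D enzymes, Cyp24a1, which degrades the hormone, differed by 0.50 ± 0.46, Cyp27b1, which activates it, by -0.36 ± 0.42 and -0.30 ± 0.52, and Cyp2r1, which makes the circulating form, by -0.10 ± 0.12. Cyp20a1, whose substrate is unknown, was the P450 gene whose p53-null arrays (-0.33 to -0.09) all read below the wild-type arrays (-0.05 to 0.19), at -0.24 ± 0.081 (adjusted p = 0.0901).

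Genes that work with P450 enzymes were followed as a list of 46, of which 44 were on the array by name and 43 were tested. Taking the brightest probe of each gene, none was called by limma's adjusted p, beside 7.1% of all probes tested. At an unadjusted p under 0.05, 4 were higher and 4 lower, or 9.3% each, beside 14.2% and 13% of all probes. The median difference was -0.12, beside 0.037 over all probes. Further probes of these genes numbered 25 tested, of which 1 was called higher and 4 lower, beside 4% and 3.1% of all probes. The count of calls thus depends on which probe stands for a gene. Of the electron donors, the cytochrome b5 reductase gene Cyb5r3 gave 0.23 ± 0.10 on its brightest probe and -0.67 ± 0.16 on the other (adjusted p = 0.0365), which are of opposite sign. The P450 reductase Por differed by -0.14 ± 0.11, the mitochondrial ferredoxin Fdx1 by -0.22 ± 0.12, -0.35 ± 0.14 and -0.58 ± 0.26 on its probes, and its reductase Fdxr by 0.02 ± 0.13. Of the regulators, the aryl hydrocarbon receptor Ahr differed by -0.19 ± 0.18, its repressor Ahrr by 0.40 ± 0.15 (adjusted p = 0.120), its partner Arnt by -0.23 ± 0.15 and the xenobiotic receptor Nr1i2 by 0.44 ± 0.15 (adjusted p = 0.0897). Arnt probes disagreed: A_51_P494196 was lower by limma at -0.44 ± 0.091 (adjusted p = 0.0276, groups not overlapping), while 2 others gave 0.26 ± 0.27 and 0.03 ± 0.19. The glucocorticoid receptor gene Nr3c1 gave -0.03 ± 0.090 on its brightest probe and -0.38 ± 0.094 (adjusted p = 0.0424), -0.34 ± 0.10 and -0.04 ± 0.099 on the others. Thromboxane synthase, Tbxas1, a P450 outside the name pattern that makes a platelet-activating lipid, had the smallest p among the brightest probes, at 0.43 ± 0.13 (adjusted p = 0.0699), and its second probe was called higher at 0.51 ± 0.13 (adjusted p = 0.0484). The sterol demethylase Cyp51 differed by -0.36 ± 0.14 (adjusted p = 0.128), by -0.39 ± 0.14 (adjusted p = 0.109) and, on the probe called lower, by -0.57 ± 0.14 (adjusted p = 0.0385), and prostacyclin synthase, Ptgis, by -0.08 ± 0.095. Among the conjugating and related enzymes the smallest p belonged to the aldehyde oxidase Aox1 at -0.32 ± 0.11 and the epoxide hydrolase Ephx1 at -0.27 ± 0.094, with -0.34 ± 0.099 on its other probe (adjusted p = 0.0624).

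Probes of 1 gene did not always give the same sign. Of 14 genes with several tested probes, 6 had differences of opposite sign, with a median gap between the extreme probes of 0.20 and the largest, 0.67, in Cyp2c37. Of the 69 tested probes, 28 had an SD over 0.5 within a group.

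The number of P450 probes called turned on wild-type array 5. Without it 14 probes were higher and 4 lower, beside 31% of all probes (16.5% higher and 14.4% lower), and those added included Cyp2u1, Cyp4a10, Cyp4f15, Cyp3a41 and Cyp2c37 among the higher and Cyp1a1, Cyp4v3, Cyp2b9 and Cyp20a1 as the lower. In the fit of all arrays the Cyp2c37 probes differed in sign, at 0.64 ± 0.38 and, on the brighter, -0.03 ± 0.37. With each array other than wild-type array 5 left out in turn, 2 were higher, Cyp4f18 and Cyp11a1, and none lower. In those fits 0.973% to 4.14% of all probes were called. The Cyp11a1 probe passed the filter through the p53-null arrays, where it was high. The same array lay between the genotypes for the Trp53 probe that fell, at -2.22, where the p53-null arrays read at most -2.66 and the other wild-type arrays at least -1.67. Whether its RNA or label differs was not tested. Its summed alveolar epithelial markers were 546.2, above the 338.2 to 371.7 of the other wild-type arrays.

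**Figure D5:**
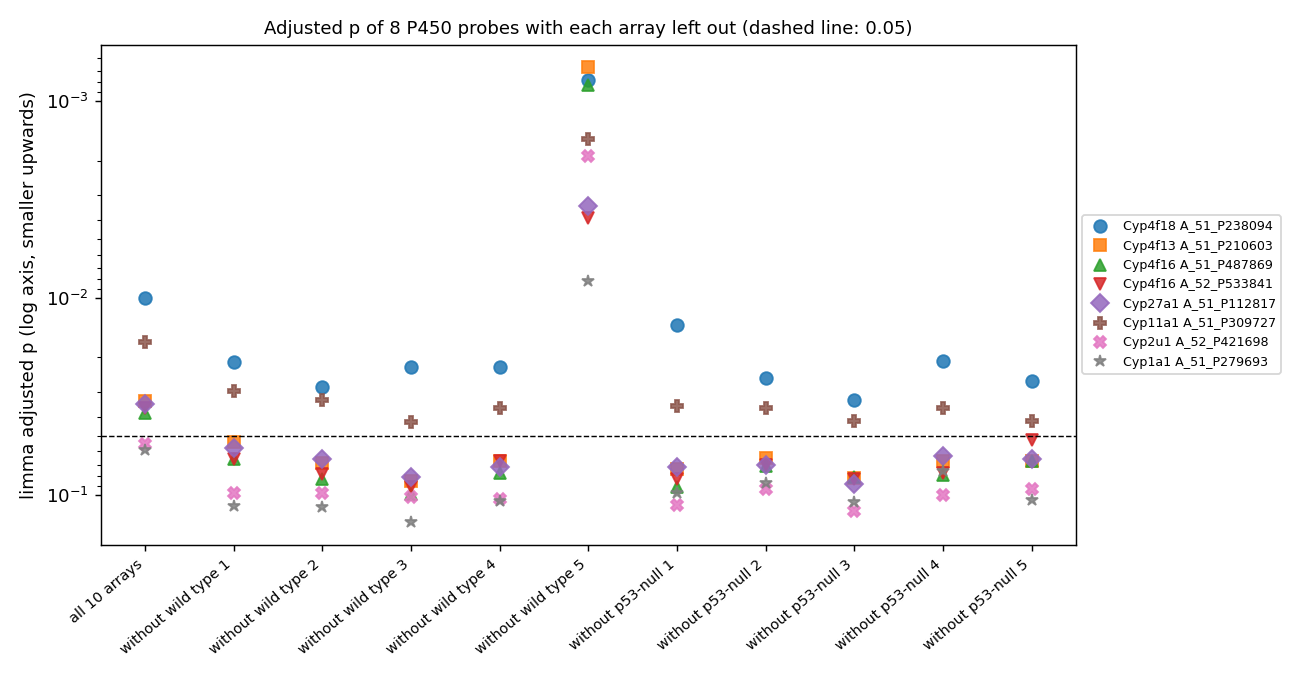
Limma adjusted p (vertical axis, log scale, smaller upwards) of 8 P450 probes in the fit of all 10 arrays and with each array left out (horizontal axis), with the threshold of 0.05 dashed. Cyp4f18 and Cyp11a1 stay above the line throughout, with adjusted p of at most 0.0331 and 0.0426, while the other 6 probes are past it without wild-type array 5. The Cyp11a1 probe passed the filter through the p53-null arrays and was well above background on only 2 wild-type arrays.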

How the data were processed

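Cy3-labelled cRNA made from 500 ng of total lung RNA was measured on Agilent arrays of 1 colour, per the labels' protocols. The submitters' processing notes name Agilent Feature Extraction 9.5. The deposited intensity is linear and background-subtracted, per the file headers, and the authors' value table of the series equalled it (largest difference 0).

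From these intensities, log2 values were formed and the 75th percentile of the 43379 spots other than controls was subtracted on each array. Spots flagged as outliers were dropped, and repeat spots of a probe were averaged. The filter asked for a signal well above background on 5 arrays. The genotypes were then compared in R 4.3.3 with limma 3.58.1, its lmFit and eBayes functions, and p-values were adjusted by Benjamini-Hochberg with a threshold of 0.05. The code was tested on simulated data. Each probe was tested on its own, and a member gene is named by its brightest probe with other tested probes of those discussed beside it. Partner and marker lists were counted by the brightest probe of each gene. Cyp2j11 stands in family 2.

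Members, lists and tests were chosen with earlier results of these data known. Named genes were the called probes, the 2 genes whose brightest probe had the smallest p in each role without a call, probes above background in 1 group only, and Cyp2f2, Cyp4b1, Cyp2a5, Cyp2b10, Cyp1a1, Cyp1b1, Cyp2s1, Cyp2e1, Cyp4f18 and Cyp26b1. Others are named to complete a role or because of their values. Of the members' probes, 4 carry an older symbol, kept as the files give it. Sequences come from the files (mm7 positions) and from RefSeq (GRCm38.p6). The number of arrays limits the precision. Slides 1 to 6 held 1 or 2 arrays each, and slide 5 alone held both groups. The closing section gives the effect of other settings.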

Additional observations from a re-analysis of the deposited data

Results flagged for a closer look

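In 10 of 72 groups of 5 values examined, the highest or lowest array stood farther from its nearest neighbour than Dixon's 95% limit allows. Chance alone does so in about 1 of 20 groups. Their causes were not tested.

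Among P450 probes, p53-null array 1 stood high in Cyp11a1 (-4.79, the next at -5.79) and in Cyp4f18 (1.56, the next at 0.97). Wild-type array 4 stood low in Cyp2s1 (4.50, the next at 4.88). The Cyp2f2 value of wild-type array 3, 4.25 with the next at 6.54, comes from a saturated spot and is a lower bound, so its distance from the others was not measured.

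Among summed marker signals, wild-type array 2 stood high in skeletal muscle (90.2, the next at 3.78) and squamous epithelium (48.1, the next at 1.67), and p53-null array 5 in squamous epithelium (20.8, the next at 2.23). Wild-type array 5 stood high in alveolar epithelium (546.2, the next at 371.7) and hepatocytes (0.144, the next at 0.106), and p53-null array 2 in adrenal cortex (0.748, the next at 0.511).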

How the results depend on the processing

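Of the 69 P450 probes, 6 were higher and 0 lower by limma. None of the 6 called probes changed sign under any alternative run. The probes higher numbered 3 without the background filter (1.16% of all probes) and 2 with slide number range or scan day as a block (1.79% and 0.88%). They numbered 0 with slide as a fixed block (0% of all probes) and within the lower slide number range (0.0237%). They also numbered 0 without the 3 arrays with muscle or squamous signal (0.0164%), which were chosen after seeing the data. They numbered 14 with array weights (16.6%), 10 with GC trend removed and wild-type array 5 left out (also added, 9.23%), and 1 at an adjusted p under 0.01. The probes lower numbered 1 with GC trend removed (2.76% of all probes), with detection on all 10 arrays (4.97%) or on 5 arrays of 1 group (4.39%), 2 with a trended robust variance (4.58%), 4 with array weights (14.8%), 3 in the added GC setting (15.9%) and 3 at an adjusted p under 0.10. Leaving out 1 array gave 2 to 14 higher and 0 to 4 lower. Some settings kept the count of higher probes near 6 but not every call. It was 4 with normexp (3.3% of all probes), without Cyp27a1 and 1 Cyp4f16 probe, and 4 with median scaling (1.9%), without Cyp4f16. It was 7 with quantile scaling (3.79%), with Cyp2u1 added, and 6 with GC trend removed (2.4%), with Cyp2u1 in place of Cyp4f13. With 1 probe per gene 5 were higher (4.43% of all probes kept). Shares of all probes at the other adjusted p thresholds are not given here.

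Of the 43 partner genes, by brightest probe, 0 were higher and 0 lower. Those higher numbered 1 with the trended variance (5.47% of all probes), 5 with array weights (16.6%) and 2 at an adjusted p under 0.10. Those lower numbered 6 with array weights (14.8%) and 9 in the added GC setting (15.9%). Leaving out 1 array gave 0 to 4 higher and 0 to 3 lower. Without wild-type array 5 there were 4 and 3 (16.5% and 14.4% of all probes), and without wild-type array 1 there was 1 higher (2.53%). Probes well above background numbered 57 to 85 under other detection rules. The causes were not tested.

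With the replicate number as a block, 0 P450 probes were higher and 0 lower, and 0 partner genes either way, where 0.101% of all probes were called. Same-numbered arrays correlated at -0.23 to 0.006 in their deviations from the group means. The labels do not say that the numbers pair animals, and so few correlations cannot exclude a pairing. Over 489 alternative values, the 17 named probes that were not called changed sign 13 times and were called 23 times. Dim probes such as those of Cyp11a1 are limited by background.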
